A study of Mus musculus with 4 samples.

Results

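The 10 genes followed here encode neutrophil granule and cytosolic proteins that mark different stages of maturation, and they were read here in RNA of natural killer (NK) cells sorted from marrow. They were found by exact match of the gene symbol in the deposited gene tables, which gave 10 of 37310 genes with 1 entry for each symbol. The primary-granule genes Mpo, Elane, Prtn3 and Ctsg mark precursors, and the late genes are Camp, Ltf, Ngp, Lcn2, S100a8 and S100a9. NK cells are innate lymphocytes, while these genes are known as products of the neutrophil lineage. All 10 genes passed the filter on low counts and are among the 13904 genes tested.

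Both groups were C57BL/6 mice aged 6 to 8 weeks. The dKO animals (2 libraries) had the genotype Gabpb1l-/-Gabpb2-/-, so they lacked Gabpb2 and the long form of Gabpb1. Both encode subunits that pair with Gabpa in the Ets-family factor GABP. The design text gives 2 biological replicates a group, and the 2 Ctrl libraries came from littermates whose own genotype is not given in the labels. The sort took NK1.1+ CD49b+ marrow cells without CD3e straight into Trizol, and the RNA was amplified by Smart-seq2. Nothing in the labels says that the deletion is restricted to a cell type, or whether animals were pooled.

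The libraries held 31469644 and 30233870 gene counts in dKO, against 34724516 and 33299226 in Ctrl. Genes with a count numbered 19450 and 19220 in dKO, against 15921 and 18206 in Ctrl, so Ctrl 1 had the fewest. Gabpb2, the deleted gene, had 2.65 and 2.85 CPM (counts scaled to the size of the library) in dKO, against 36.5 and 30.4 CPM in Ctrl (log2 fold change -3.61 with an SE of 0.26, edgeR adjusted p = 0.00126). The groups also differed in sex-linked transcripts, since Xist had 0.0622 and 0.298 CPM in dKO, against 178 and 194 CPM in Ctrl, and Ddx3y had 278 and 224 CPM in dKO and no count in either Ctrl library. Genotype therefore cannot be told apart from that difference. Gabpa and Gabpb1 counts over the whole gene had log2 fold changes of 0.30 (edgeR adjusted p = 0.578) and 0.56 (edgeR adjusted p = 0.273), and a whole-gene count does not check the long form. The sorted cells carried the defining NK transcript Ncr1 at 1858 and 1684 TPM (the length-scaled level) in dKO, against 2137 and 1788 TPM in Ctrl.

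Neutrophils fill their granules in the order in which the genes are switched on. Promyelocytes make the primary (azurophil) granule proteins, which are myeloperoxidase and the serine proteases, and stop doing so as they mature. Myelocytes and metamyelocytes then make the proteins of the secondary and later granules, such as lactoferrin, and the cytosolic pair S100a8 and S100a9 builds up until the cell is mature. PU.1 and the C/EBP factors drive this program, and in mice C/EBP epsilon is needed for the secondary-granule genes. The 2 sets of transcripts are therefore commonly used to place neutrophil-lineage cells by stage. In RNA from a sorted population, fewer cells of a type and less RNA per cell cannot be told apart.

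The promoters of the 4 primary-granule genes and of the late genes Ltf and Ngp are given because the primary genes shared the library in which they were highest, while the late genes shared the one in which they were lowest. The sequences are those of RefSeq on GRCm38.p6, from 250 bases before to 50 bases after the RefSeq gene start, read 5′ to 3′ along the gene. Capitals mark AGGAAGT, a PU.1-type Ets site, in the primary-granule genes and TTGCNNAA, a C/EBP site, or its reverse complement TTNNGCAA in the late genes.
Mpo chr11:87793534-87793833, plus strand: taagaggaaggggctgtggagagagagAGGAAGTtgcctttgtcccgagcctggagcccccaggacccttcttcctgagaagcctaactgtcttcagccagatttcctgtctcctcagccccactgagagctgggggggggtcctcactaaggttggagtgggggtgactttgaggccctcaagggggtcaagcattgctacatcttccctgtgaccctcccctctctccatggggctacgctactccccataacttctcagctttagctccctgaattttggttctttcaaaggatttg
Elane chr10:79886062-79886361, plus strand: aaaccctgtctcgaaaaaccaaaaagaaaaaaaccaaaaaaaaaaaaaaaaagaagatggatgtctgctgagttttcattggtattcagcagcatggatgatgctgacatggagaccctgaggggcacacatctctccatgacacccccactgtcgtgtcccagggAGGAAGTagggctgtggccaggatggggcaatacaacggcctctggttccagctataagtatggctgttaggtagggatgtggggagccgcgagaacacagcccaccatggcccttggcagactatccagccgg
Prtn3 chr10:79879417-79879716, plus strand: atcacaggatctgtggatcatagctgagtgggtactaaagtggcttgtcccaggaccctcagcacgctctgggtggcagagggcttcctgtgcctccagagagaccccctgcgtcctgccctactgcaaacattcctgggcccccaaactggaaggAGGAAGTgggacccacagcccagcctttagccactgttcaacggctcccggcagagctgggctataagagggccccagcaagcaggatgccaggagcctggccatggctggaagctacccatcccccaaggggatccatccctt
Ctsg chr14:56102525-56102824, minus strand: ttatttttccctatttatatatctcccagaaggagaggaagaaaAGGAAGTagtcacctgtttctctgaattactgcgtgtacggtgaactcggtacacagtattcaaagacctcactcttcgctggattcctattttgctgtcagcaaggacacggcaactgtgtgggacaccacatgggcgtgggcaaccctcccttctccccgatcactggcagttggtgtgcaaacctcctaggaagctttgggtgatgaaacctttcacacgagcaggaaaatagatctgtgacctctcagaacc
Ltf chr9:111019042-111019341, plus strand: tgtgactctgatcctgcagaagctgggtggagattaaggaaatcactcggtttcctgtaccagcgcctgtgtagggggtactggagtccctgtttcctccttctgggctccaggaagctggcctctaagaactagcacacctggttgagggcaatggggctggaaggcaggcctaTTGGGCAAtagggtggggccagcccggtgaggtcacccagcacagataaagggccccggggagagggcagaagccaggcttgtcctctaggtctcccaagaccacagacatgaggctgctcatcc
Ngp chr9:110419558-110419857, plus strand: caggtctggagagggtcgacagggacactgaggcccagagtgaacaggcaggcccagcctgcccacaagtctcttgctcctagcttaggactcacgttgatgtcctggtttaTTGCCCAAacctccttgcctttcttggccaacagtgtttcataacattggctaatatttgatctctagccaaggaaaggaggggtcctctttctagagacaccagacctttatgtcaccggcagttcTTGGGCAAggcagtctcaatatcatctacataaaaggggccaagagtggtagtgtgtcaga
AGGAAGT was present on either strand in 4 of 4 primary-granule promoters and in 1 of 6 late ones, that of S100a8, against 9.35% of all 32851 RefSeq mouse promoters of this length. The first base of the site lay 223 bases upstream of the start in Mpo, 84 in Elane, 94 in Prtn3 and 206 in Ctsg. In S100a8 it was read on the other strand as ACTTCCT. TTGCNNAA was present in 0 of 4 primary-granule promoters and in 4 of 6 late ones, those of Ltf, Ngp, Lcn2 and S100a9, against 10.8% of all promoters. CCGGAAGT, a GABP-type site, shares GGAAGT with the PU.1-type site but not the base before it, so the same letters cannot match both. It was present in 0 of the 10 promoters and in 3.89% of all. The motifs were chosen after the sequences had been read, so these matches only describe the letters in these windows.

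In every library the late genes far exceeded the primary-granule genes. The TPM of a gene is scaled by its length, so genes can be compared on it. The summed level of the 6 late genes was 2727 and 4555 TPM in dKO, against 3341 and 4832 TPM in Ctrl. The summed level of the 4 primary-granule genes was 155 and 125 TPM in dKO, against 784 and 253 TPM in Ctrl. Ctrl 1 thus stood far above the other libraries in the primary sum, while dKO 1 was lowest in the late sum. All 10 genes together took 0.288% and 0.468% of the TPM in dKO, against 0.413% and 0.508% in Ctrl.

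Ngp, which encodes the secondary-granule protein neutrophilic granule protein, was the most abundant of the 10 in each library. It had 1215 and 1871 TPM in dKO, against 1398 and 2390 TPM in Ctrl, a level in the range of Ncr1. Its rank among all genes was 102 and 66 in dKO, against 93 and 43 in Ctrl. Mpo ranked 2847 and 3127 in dKO, against 421 and 1723 in Ctrl. Ctsg was the lowest, with 4.52 and 8.07 TPM in dKO, against 27.1 and 7.54 TPM in Ctrl. S100a8 came second among the late genes in each library. It had 510 and 912 TPM in dKO, against 658 and 761 TPM in Ctrl. S100a9 had 388 and 816 TPM in dKO, against 568 and 524 TPM in Ctrl, which put it above Camp and Ltf except in Ctrl 2, where Ltf was higher. Camp, with 286 and 512 TPM in dKO against 321 and 476 TPM in Ctrl, and Ltf, with 289 and 346 TPM in dKO against 333 and 606 TPM in Ctrl, did not differ in level from each other beyond the spread of the libraries. Mpo had 70.3 and 55.6 TPM in dKO, against 383 and 115 TPM in Ctrl, and in Ctrl 1 it exceeded Camp and Ltf. Elane had 55.6 and 35.5 TPM in dKO, against 248 and 97.2 TPM in Ctrl. Lcn2 had 38.6 and 98.2 TPM in dKO, against 62.5 and 74.3 TPM in Ctrl, and so it lay above Elane in dKO 2 and below it in the other libraries. Prtn3 had 24.7 and 26.2 TPM in dKO, against 127 and 33.7 TPM in Ctrl.

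**Figure D1:**
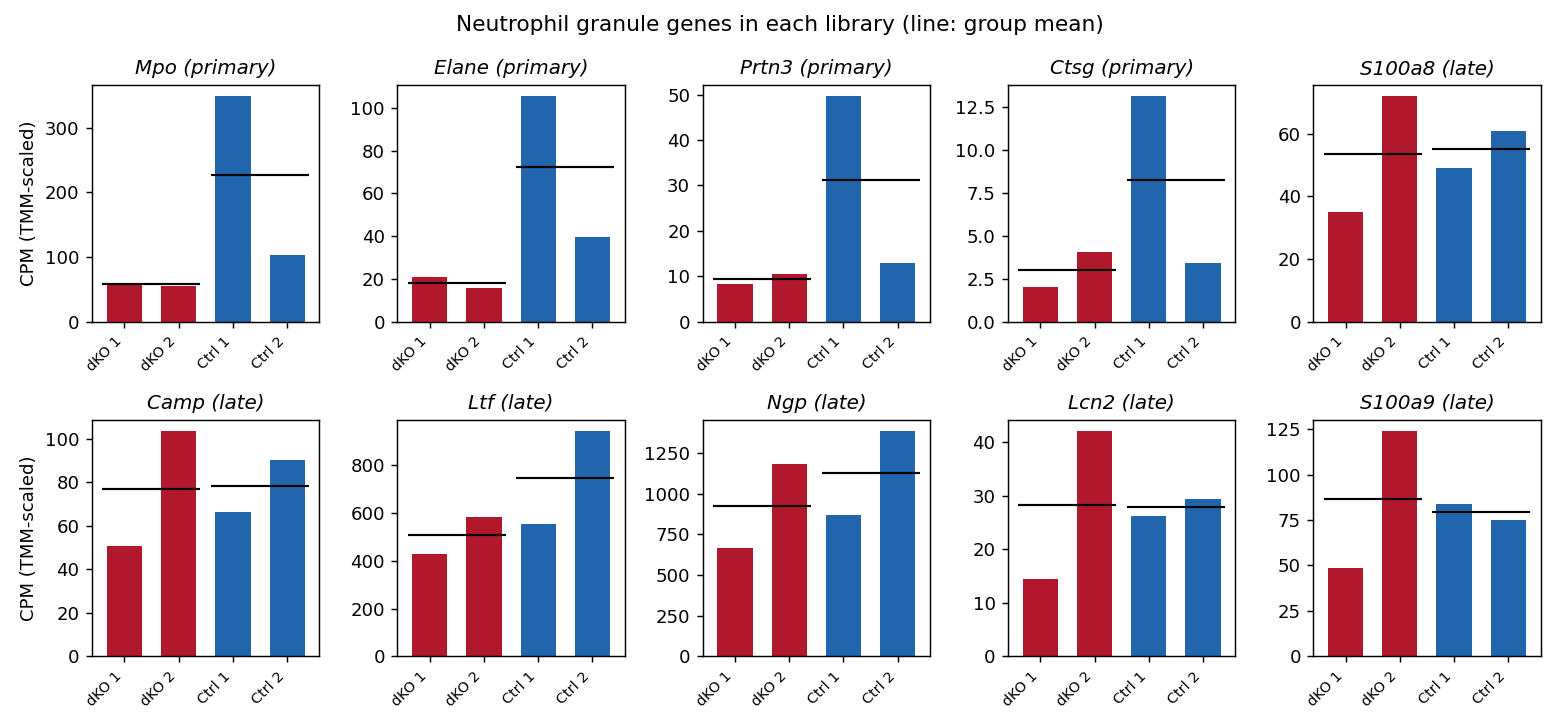
CPM of each of the 10 granule genes (1 panel per gene, each with its own axis from 0), with a bar per library (dKO red, Ctrl blue) and a black line at each group mean. Mpo, Elane, Prtn3 and Ctsg were highest in Ctrl 1, at 348, 105.5, 49.7 and 13.1 CPM, and each late gene was lowest in dKO 1.

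The fitted levels of all 4 primary-granule genes were lower in dKO than in Ctrl, but none passed the test. Mpo encodes myeloperoxidase, which makes hypochlorous acid, and lies on chromosome 11 (GRCm38, chr11:87793581-87804413, plus strand). It had 59.7 and 55.5 CPM in dKO, against 348 and 104 CPM in Ctrl, and the groups did not overlap. Its group means were 57.6 ± 2.98 CPM in dKO and 226 ± 173 CPM in Ctrl (SD, n = 2 each), which is 3.92 times lower in dKO (log2 fold change -1.97 with an SE of 0.47, edgeR adjusted p = 0.155). The Ctrl libraries lay far apart, with Ctrl 1 at 3.36 times Ctrl 2.

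Elane encodes neutrophil elastase (chr10:79886247-79888215, plus strand). It had 20.9 and 15.7 CPM in dKO, against 105.5 and 39.4 CPM in Ctrl, and both dKO libraries lay below both Ctrl libraries. It was 3.96 times lower in dKO (log2 fold change -1.99 with an SE of 0.42, edgeR adjusted p = 0.112), with the smallest adjusted p among the 10 genes.

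Prtn3 encodes proteinase 3 and lies 3.07 kb upstream of Elane on the same strand (chr10:79874476-79883174). It had 8.25 and 10.4 CPM in dKO, against 49.7 and 12.8 CPM in Ctrl. The groups did not overlap, although Ctrl 2 lay just above dKO 2. The difference was 3.35-fold lower in dKO (log2 fold change -1.75 with an SE of 0.54, edgeR adjusted p = 0.284).

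Ctsg encodes cathepsin G (chr14:56099881-56102574, minus strand). It had 2.02 and 4.04 CPM in dKO, against 13.1 and 3.40 CPM in Ctrl, and the groups overlapped, since Ctrl 2 lay between the dKO libraries. The fitted change was 2.73-fold lower in dKO (log2 fold change -1.45 with an SE of 0.63, edgeR adjusted p = 0.477).

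By edgeR's quasi-likelihood test with Benjamini-Hochberg adjustment over all genes, 0 of 4 primary-granule genes and 0 of 6 late genes were called, against 0.611% of all 13904 tested genes in either direction and 0.295% with dKO lower. At an unadjusted p under 0.05, 3 of 4 primary-granule genes and 0 of 6 late genes passed, against 10.6% of all genes in either direction and 5.34% with dKO lower. Both dKO libraries lay below both Ctrl libraries in 3 of 4 primary-granule genes and in 0 of 6 late genes, against 19.9% of all genes. The median log2 fold change was -1.86 for the primary-granule genes and -0.03 for the late genes, beside 0.01 over all genes tested. DESeq2 called 2 of 4 primary-granule genes, Elane (adjusted p = 5.50e-06) and Prtn3 (adjusted p = 0.00682), and no late gene, against 2.86% of all genes. With limma-voom 0 of the 10 genes were called, against 0.885% of all. Without the count filter edgeR called Elane, Prtn3, Ctsg and Ltf, against 2.4% of 23322 genes.

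Leaving out either Ctrl library moved the fold changes of the primary-granule genes. Without Ctrl 1, Mpo had a log2 fold change of -0.85 (edgeR adjusted p = 0.161), Elane -1.11 (adjusted p = 0.161), Prtn3 -0.46 (adjusted p = 0.746) and Ctsg -0.17 (adjusted p = 0.966), and their median was -0.66, with 0 of 4 called, against 0.676% of all genes. Without Ctrl 2, edgeR called 3 of the 4, with Mpo at -2.60 (adjusted p = 0.000250), Elane at -2.53 (adjusted p = 0.00191) and Prtn3 at -2.41 (adjusted p = 0.00406), against 1.26% of all genes, and the median was -2.47. The lone Ctrl library is then assumed to vary like the dKO libraries. Ctrl 1 also had the fewest genes with a count, and the part of that in these levels was not tested.

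**Figure D2:**
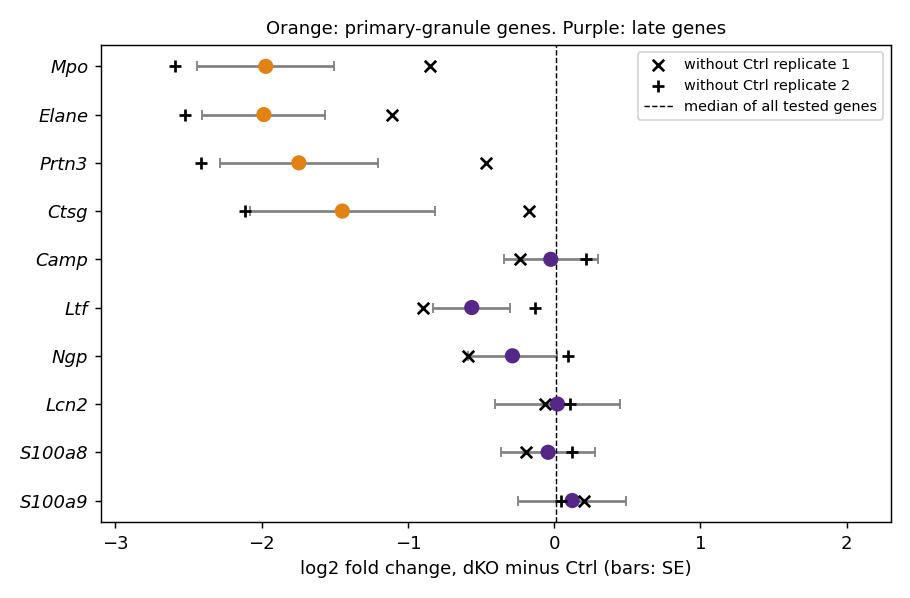
Log2 fold change (dKO over Ctrl) of the 10 genes with bars of 1 SE from the edgeR fit, crosses and plus signs for the values without Ctrl 1 and without Ctrl 2, and a dashed line at the median of all tested genes. The primary-granule genes had a median of -1.86 and moved to -0.66 without Ctrl 1, while the late genes lay around a median of -0.03.

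The late genes did not separate the groups. Ltf encodes lactoferrin, the iron-binding protein of secondary granules (chr9:111019271-111042767, plus strand). It had 429 and 584 CPM in dKO, against 554 and 943 CPM in Ctrl, and the groups overlapped. It was the late gene with the smallest p, at 1.48-fold lower in dKO (log2 fold change -0.56 with an SE of 0.26, edgeR adjusted p = 0.519). Ngp (chr9:110419747-110423012, plus strand) had 663 and 1184 CPM in dKO, against 867 and 1385 CPM in Ctrl (log2 fold change -0.29 with an SE of 0.30, edgeR adjusted p = 0.820). In both genes the second library of a group was the higher one, and dKO 1 was the lowest of the 4.

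Camp encodes the antimicrobial cathelicidin (chr9:109847379-109849617, minus strand). It had 50.5 and 103.6 CPM in dKO, against 66.3 and 90.3 CPM in Ctrl, so the dKO libraries lay on either side of both Ctrl libraries. Its log2 fold change was -0.02 (SE 0.32, edgeR adjusted p = 0.994), positive without composition scaling. Lcn2 encodes lipocalin 2, which binds bacterial siderophores (chr2:32384633-32388252, minus strand). It had 14.4 and 42.1 CPM in dKO, against 26.2 and 29.4 CPM in Ctrl, and again the dKO pair enclosed the Ctrl pair (log2 fold change 0.02 with an SE of 0.43, edgeR adjusted p = 0.995).

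S100a8 and S100a9 encode the chains of the cytosolic protein calprotectin and lie 22.6 kb apart on chromosome 3 (chr3:90668978-90670035, plus strand, and chr3:90692632-90695721, minus strand). S100a8 had 34.9 and 72.0 CPM in dKO, against 49.2 and 60.8 CPM in Ctrl (log2 fold change -0.04 with an SE of 0.32, edgeR adjusted p = 0.986). S100a9 had 48.8 and 124.0 CPM in dKO, against 83.6 and 75.0 CPM in Ctrl (log2 fold change 0.12 with an SE of 0.37, edgeR adjusted p = 0.953). For both, dKO 2 was highest and dKO 1 lowest. The sign of the fold change turned when 1 of the dKO libraries was left out for Camp, Ngp, Lcn2, S100a8 and S100a9, so no direction can be given for them. The median log2 fold change of the late genes was 0.40 without dKO 1 and -0.73 without dKO 2.

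The balance of the stages within each library put Ctrl 1 apart. Late transcripts exceeded primary ones 17.6-fold and 36.3-fold in dKO, against 4.26-fold and 19.1-fold in Ctrl, on summed TPM. The primary-granule genes made up 5.38% and 2.68% of the TPM of the 10 genes in dKO, against 19.0% and 4.98% in Ctrl. Ctrl 2 lay between the dKO libraries on both measures, so the groups overlapped. The log2 ratio of primary to late TPM averaged -4.66 ± 0.74 in dKO and -3.17 ± 1.53 in Ctrl (SD, n = 2 each), a difference of -1.49 that is close to the larger SD, and no test was made on it. Without Ctrl 1 the difference was -0.40, and without Ctrl 2 it was -2.57.

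The same order held for the leading gene of each stage. Ngp exceeded Mpo 17.3-fold and 33.6-fold in dKO, against 3.65-fold and 20.9-fold in Ctrl, on TPM. Mpo carried 44.4% to 48.8% of the primary sum over the 4 libraries and Ngp 41.1% to 49.5% of the late sum. The smaller shares varied more, with Ctsg at 2.92% and 6.43% of the primary sum in dKO, against 3.45% and 2.98% in Ctrl, and S100a9 at 14.2% and 17.9% of the late sum in dKO, against 17.0% and 10.9% in Ctrl. Leaving out Mpo gave a difference in the log2 ratio of -1.43, leaving out Ltf gave -1.52, and leaving out S100a8 and S100a9 gave -1.41.

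**Figure D3:**
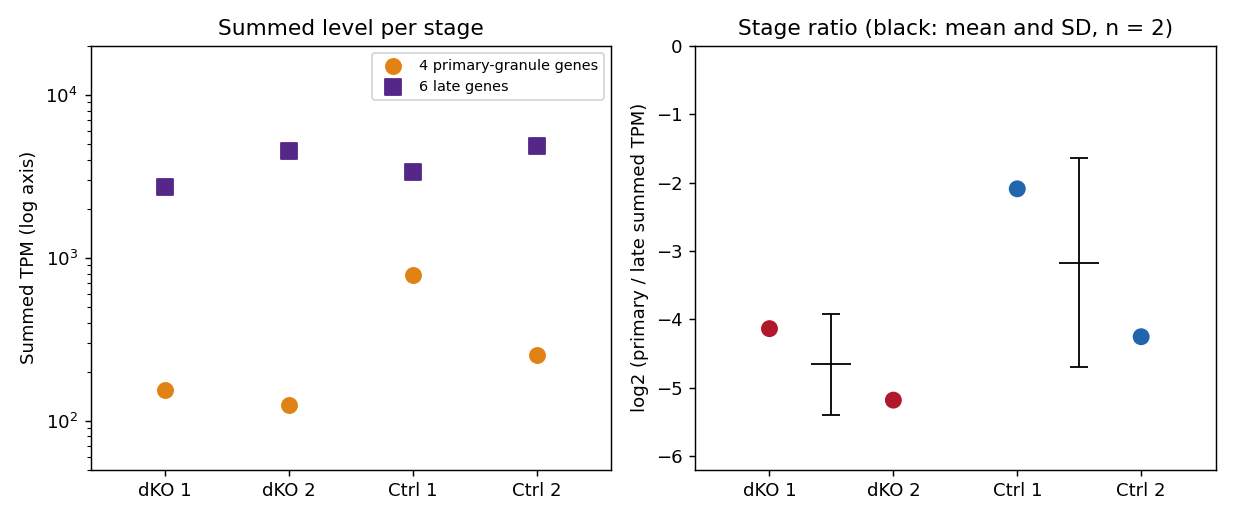
Left, summed TPM of the 4 primary-granule and of the 6 late genes in each library (points, log axis). Right, log2 of primary over late TPM per library, at -4.14 and -5.18 in dKO and -2.09 and -4.26 in Ctrl, with Ctrl 2 between the dKO libraries.

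Libraries of the same group differed by stage. Ctrl 1 exceeded Ctrl 2 in all 4 primary-granule genes, at least 2-fold in each, a size met by 5.75% of 13496 genes, and no late gene reached that size. On the RSEM expected counts the fold was 3.46 for Mpo (exact 95% interval 3.30 to 3.62), 2.68 for Elane (2.45 to 2.94), 3.93 for Prtn3 (3.38 to 4.59) and 3.78 for Ctsg (2.82 to 5.15), and these intervals cover counting error only. The widest interval was that of Ctsg, which had 222 expected counts in Ctrl 1 and 57 in Ctrl 2. Its whole-number counts were 65 and 122 in dKO, against 447 and 113 in Ctrl. On the whole-number counts the late genes had Ctrl 1 over Ctrl 2 folds of 0.587 to 1.12. Ctrl 1 was at least 2-fold above each of the other 3 libraries in 4 of 4 primary-granule genes, against 1.22% of all tested genes.

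In the dKO pair all 6 late genes were lower in dKO 1. On the whole-number counts the fold of dKO 1 over dKO 2 was 0.342 for Lcn2, 0.394 for S100a9, 0.486 for S100a8, 0.488 for Camp, 0.560 for Ngp and 0.735 for Ltf. Of the 6, 4 were at or below 0.5, against 6.1% of 13777 genes. The primary-granule genes had dKO 1 over dKO 2 folds of 0.501 (Ctsg) to 1.33 on these counts, so Ctsg differed by more than Ngp and Ltf. On the expected counts the fold was 0.490 for Ctsg and 0.414 for S100a8. All 6 late genes were lowest in dKO 1, against 23.7% of all tested genes, and all 4 primary-granule genes were highest in Ctrl 1, against 27.2%. The highest late value was in dKO 2 for 4 genes (24.5% of all tested genes) and in Ctrl 2 for Ltf and Ngp (22.9%). The lowest primary value was in dKO 1 for Prtn3 and Ctsg and in dKO 2 for Mpo and Elane (23.4%).

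Other genes of the granulocyte lineage were counted from lists drawn up beside the 10 genes. Of 10 other precursor genes, 0 were called by edgeR and 9 were negative, with a median log2 fold change of -0.30. Over all 13904 tested genes 0.611% were called and 6735 were negative. The positive gene was Cebpe. Fcnb was lowest in Ctrl 1, with 3.08 and 5.06 CPM in dKO, against 3.025 and 8.35 CPM in Ctrl. Hdc, Cebpe and Gfi1 are also counted in the basophil or factor lists below. Ms4a3, a marker of granulocyte-monocyte progenitors, had 1.03 and 1.03 CPM in dKO, against 5.49 and 2.32 CPM in Ctrl (log2 fold change -1.92 with an SE of 0.57, edgeR adjusted p = 0.261). Ctsc, which encodes the peptidase that activates granule serine proteases and is also made by NK cells, had 454 and 475 CPM in dKO, against 652 and 697 CPM in Ctrl (log2 fold change -0.54, edgeR adjusted p = 0.209).

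Of 30 other late granulocyte genes 26 were tested, 0 were called and the median log2 fold change was -0.08. Padi4, which encodes a histone-citrullinating enzyme, had 14.1 and 23.2 CPM in dKO, against 34.2 and 27.7 CPM in Ctrl (log2 fold change -0.73, edgeR adjusted p = 0.410). Lyz2, the lysozyme gene shared with macrophages, had 1160 and 1527 CPM in dKO, against 1168 and 1338 CPM in Ctrl. The neutrophil surface marker Ly6g had 3.42 and 8.67 CPM in dKO, against 4.99 and 10.3 CPM in Ctrl, and Stfa1 and Stfa2 had no count in any library. Not every gene of this list was lowest in dKO 1. Padi4, Lyz2 and Ly6g were, while Anxa1 and Mmp8 were lowest in Ctrl 1. Anxa1 had 293 and 311 CPM in dKO, against 262 and 340 CPM in Ctrl. Mmp8 had 77.3 and 104.9 CPM in dKO, against 65.1 and 117.9 CPM in Ctrl.

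Among 9 factors of granulopoiesis 7 were tested and 1 was called, against 0.611% of all 13904 tested genes. Irf8, which favours monocytes over neutrophils and is also expressed by NK cells, fell to 441 and 428 CPM in dKO, against 807 and 903 CPM in Ctrl (log2 fold change -0.98 with an SE of 0.15, edgeR adjusted p = 0.0337). The edgeR adjusted p was 0.0677 without dKO 1 and 0.0873 without dKO 2. Sfpi1, which encodes PU.1, had 17.8 and 28.5 CPM in dKO, against 10.8 and 8.17 CPM in Ctrl (log2 fold change 1.29 with an SE of 0.31, edgeR adjusted p = 0.156), and the groups did not overlap. Cebpe, the gene of C/EBP epsilon, had 1.77 and 2.32 CPM in dKO, against 2.00 and 1.69 CPM in Ctrl. Cebpd, the gene of C/EBP delta, had 69 and 64 counts in dKO, against 0 and 5 counts in Ctrl, and the groups did not overlap (edgeR adjusted p = 0.167). Of the 7 tested factors, both dKO libraries lay above both Ctrl libraries in 2, against 21.7% of all tested genes. They lay below both in 3, against 19.9%. Cebpb and Cebpa did not pass the filter on low counts. Cebpb had 7 and 16 counts in dKO, against 0 and 0 in Ctrl, and Cebpa had 8 and 6 counts in dKO, against 20 and 0 in Ctrl. Gfi1 had 6.26 and 6.32 CPM in dKO, against 7.64 and 7.59 CPM in Ctrl.

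Markers of other marrow cells were measured beside the granule genes. The summed eosinophil markers were 10.2 and 16.1 CPM in dKO, against 68.4 and 42.1 CPM in Ctrl. They included Prg2, the gene of eosinophil major basic protein, with 2.02 and 7.08 CPM in dKO, against 39.7 and 18.8 CPM in Ctrl (log2 fold change -2.69 with an SE of 0.58, edgeR adjusted p = 0.119). Both were highest in Ctrl 1, as were the primary-granule genes, and 0 of 7 tested eosinophil markers were called. In Ctrl, Prg2 and Epx carried most of the sum. Of the other tested markers Prg3 and Epx were also highest in Ctrl 1. Siglec5 was highest in dKO 1, Il5ra in dKO 2, and Ear2 and Ccr3 in Ctrl 2. The genes of dividing cells summed to 1023 and 1399 CPM in dKO, against 2540 and 1731 CPM in Ctrl, again highest in Ctrl 1. Of the 19 dividing-cell genes 1 was called, Tyms (3.33 and 6.55 CPM in dKO, against 28.3 and 22.03 CPM in Ctrl, edgeR adjusted p = 0.0379), and 18 were negative. The positive one was Pcna, with 25.3 and 41.6 CPM in dKO, against 16.5 and 11.7 CPM in Ctrl (log2 fold change 1.25 with an SE of 0.30, edgeR adjusted p = 0.166). Over all 13904 tested genes 0.611% were called in either direction, 0.295% with dKO lower, and 6735 were negative. Without Ctrl 1 the adjusted p of Tyms in edgeR was 0.0534. The part of these cells in the primary-granule levels was not tested.

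The late genes ran beside the erythroid markers, which summed to 949 and 1250 CPM in dKO, against 1255 and 1464 CPM in Ctrl, lowest in dKO 1. For the counts called in each list that follows, the share over all 13904 tested genes was 0.611% in either direction and 0.295% with dKO lower. Stem and progenitor markers summed to 146 and 148 CPM in dKO, against 142 and 172 CPM in Ctrl, and 0 of 11 were called. Kit was the largest part of these sums, at 88.9 and 81.6 CPM in dKO, against 70.2 and 105.4 CPM in Ctrl. The median log2 fold change of the 11 was -0.36, with 8 negative and 3 positive. Monocyte and macrophage markers summed to 2850 and 3186 CPM in dKO, against 2678 and 2981 CPM in Ctrl, and 0 of 15 were called. Ccr2 carried most of these sums, at 2454 and 2607 CPM in dKO, against 2065 and 2173 CPM in Ctrl. Ly6c2 had 104 and 187 CPM in dKO, against 347 and 349 CPM in Ctrl (log2 fold change -1.26, edgeR adjusted p = 0.0994). The median log2 fold change of the list was -0.13, with 10 negative and 5 positive. B cell markers summed to 344 and 454 CPM in dKO, against 379 and 658 CPM in Ctrl, and 0 of 11 were called. Ighm carried most of these sums, at 232 and 309 CPM in dKO, against 261 and 397 CPM in Ctrl. All 11 B cell markers were negative, against 6735 of all 13904 tested genes, with a median log2 fold change of -0.57. Of 11 T cell markers 2 were called, Cd3e and Trac, both lower in dKO, and the sums were 775 and 690 CPM in dKO, against 963 and 887 CPM in Ctrl. Trbc1 and Trbc2 carried most of these sums, with log2 fold changes of 0.22 and -0.37. The median over the 11 markers was -1.50, and 10 were negative, against 6735 of all 13904 tested genes. Of 9 basophil and mast cell markers 1 was called, Cma1, lower in dKO (edgeR adjusted p = 0.0337, and 0.0677 without dKO 1), and the sums were 58.8 and 91.0 CPM in dKO, against 115 and 150.4 CPM in Ctrl. Cma1 and Hdc carried most of these sums in Ctrl, with Cma1 at 30.1 and 36.3 CPM in dKO, against 75.9 and 100.4 CPM in Ctrl, and Hdc at 11.2 and 17.1 CPM in dKO, against 22.3 and 22.7 CPM in Ctrl. The fold change was positive in 6 of the 9 tested markers, with a median of 0.30 on the log2 scale, and the basophil protease genes Mcpt8 and Prss34 had log2 fold changes of 0.51 (edgeR adjusted p = 0.804) and 0.61 (edgeR adjusted p = 0.754). Platelet markers summed to 10.9 and 8.37 CPM in dKO, against 14.4 and 19.0 CPM in Ctrl, and 0 of 6 were called. NK identity genes summed to 14895 and 14869 CPM in dKO, against 17695 and 17570 CPM in Ctrl, and 0 of 12 were called. Their part in the late levels was not tested.

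The genes whose profile over the 4 libraries lay nearest to the mean of the primary-granule genes included genes of DNA replication and cell division. Likeness was the Euclidean distance between centred log2 CPM values, with a prior count of 2. It was measured for 7635 tested genes that averaged 10 CPM or more. The granule genes themselves and genes with only a predicted or clone-type symbol were left out. The nearest were Cdca7, Shmt1, Spc24, Uhrf1 and Ccne2, at distances of 0.54, 0.59, 0.65, 0.66 and 0.67. Cdca7 had 9.52 and 15.1 CPM in dKO, against 64.9 and 27.0 CPM in Ctrl. The centred log2 means of the primary-granule genes were -0.87 and -0.68 in dKO and 1.66 and -0.10 in Ctrl.

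The late genes had a different set of neighbours. The nearest were mt-Co2, mt-Nd4, Hba-a1, Cyb5d2 and Eepd1, at distances of 0.14, 0.17, 0.20, 0.22 and 0.23, of which mt-Co2 and mt-Nd4 are mitochondrial genes and Hba-a1 is alpha globin. Hba-a1 had 93.6 and 167 CPM in dKO, against 128 and 184 CPM in Ctrl. The centred log2 means of the late genes were -0.62 and 0.42 in dKO and -0.08 and 0.29 in Ctrl. With 4 libraries a profile has few values, so the distances describe these libraries only.

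**Figure D4:**
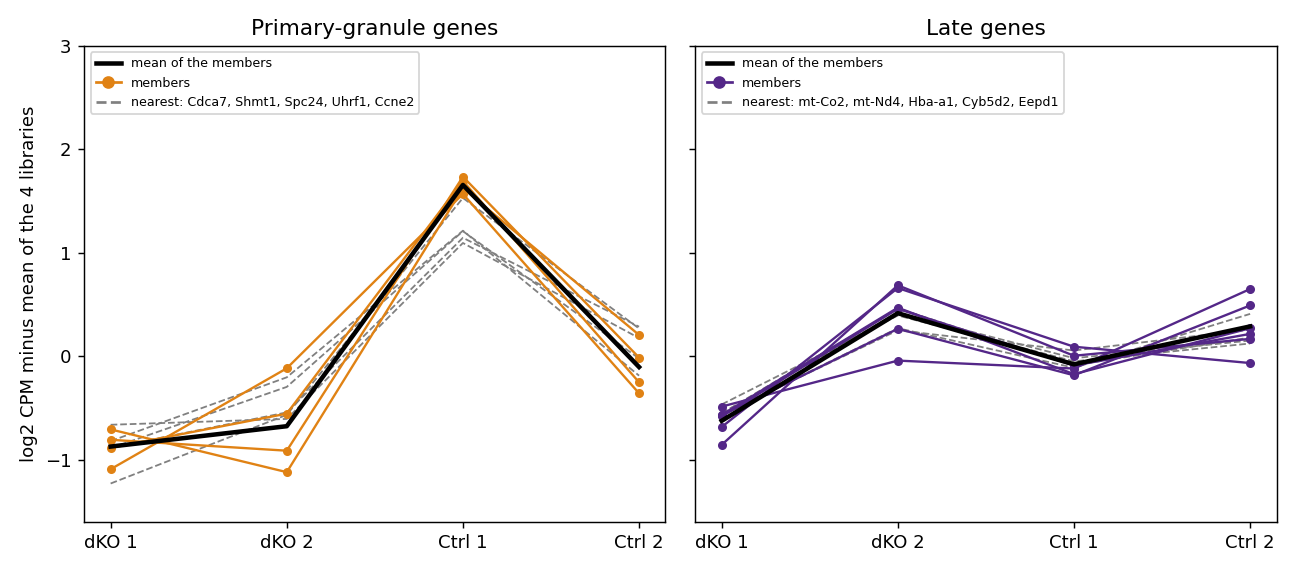
Centred log2 CPM over the 4 libraries of the primary-granule genes (left) and of the late genes (right), with the genes of nearest profile. The primary mean peaks at 1.66 in Ctrl 1, and the late mean runs between -0.62 in dKO 1 and 0.42 in dKO 2.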

How the data were processed

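RNA was sequenced from 4 sorted populations, 2 dKO and 2 Ctrl. Per the submitters' processing notes the tools were HTSeq 0.6.1, RSEM 1.3.0 and TopHat2 2.1.1 on mm9, with Trimmomatic 0.36 and FastQC 0.11.5 also named. For annotation release and strand setting the sources used here give nothing, so genes that overlap are uncertain. For each library the authors deposited a table of whole-number gene counts and a gene table with expected counts, TPM and FPKM, per the file headers. The deposited FPKM entered no result. The whole-number count was 2.05 to 2.07 times the expected count in the median gene, so intervals used the expected counts. Reads in no gene were 23.8% and 24.3% of all counted reads in dKO, against 18.1% and 21.5% in Ctrl, and were left out of library sizes.

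The test on the counts was edgeR 4.0.16 (quasi-likelihood, robust, R 4.3.3) with TMM scaling. Genes with low counts were removed first (minimum count 10), leaving 13904. P-values were adjusted by Benjamini-Hochberg over these genes at a threshold of 0.05. The SE was taken from the fold change and the F value, as |log2 fold change| over √F, and CPM use the TMM library size. TPM served to compare genes and to sum the genes of a stage in each library, and entered no test. The design text calls the replicates biological and does not say whether each is 1 animal, so p-values measure the spread between these samples. With 2 libraries a group, the smallest two-sided p of an exact permutation is 0.333. The procedure was tested on simulated data. Alternatives were other scalings and filters, DESeq2 1.42.0, limma-voom 3.58.1, the expected counts rounded to whole numbers, a replicate block and leaving out each library.

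The members and the gene lists were chosen with earlier results of these data known. The rule for names took the 10 genes, the GABP subunits, of each list the called genes (or the 2 of smallest p) and the 2 of highest CPM, and the 5 nearest profiles per stage. Genes of marker lists on which no result turns are given as counts and sums. Xist, Ddx3y, Ncr1, Ms4a3, Fcnb, Ly6g, Stfa1, Stfa2, Mmp8, Sfpi1, the Cebp genes, Gfi1, Siglec5, Il5ra, Ear2, Ccr3, Mcpt8, Prss34 and Pcna were named after their values were seen. Positions are GRCm38 (GENCODE M21) by Ensembl identifier, and promoters are RefSeq GRCm38.p6. Neither is in coordinates of the build used for counting.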

Additional observations from a re-analysis of the deposited data

How the results depend on the processing

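The primary-granule genes were negative under each of the 12 alternatives tried per gene, and the late genes Camp, Ngp, Lcn2, S100a8 and S100a9 changed sign under at least 1. Over all genes, edgeR called 85, against 559 with no filter on counts, 147 under a stricter one, 398 by DESeq2 and 73 to 187 when 1 library was left out. The primary-granule count of 0 became 3 without the filter, 2 by DESeq2, 1 with the replicate block and 0 to 3 when 1 library was left out; the late count became 1 without the filter (Ltf). The primary median ran from -2.47 to -0.66 and the late median from -0.73 to 0.40 when 1 library was left out. The cause was not tested. The difference in the log2 stage ratio ran from -1.52 to -1.33 under other ways of summing the genes. Of these, expected counts over full gene length, and the whole-number folds within a group, were chosen after seeing the data. The labels state no pairing by replicate number. Same-numbered libraries deviated with r = -0.05 over 13904 genes, and a value over all genes cannot exclude a pairing that touches some of them. The block called Elane (log2 fold change -1.84, edgeR adjusted p = 0.0244) and 100 genes in all. With 1 library left out, medians ran from -0.58 to -0.15 for the other precursor genes, -0.46 to 0.21 for the other late genes, -0.12 to 0.32 for the factors, -0.49 to 0.29 for monocyte, -1.04 to 0.11 for B cell, -2.05 to -1.37 for T cell, -0.46 to 0.77 for basophil, -2.37 to -0.70 for eosinophil and -0.22 to -0.12 for NK genes. The counts called ran from 0 to 2 for the factors, 0 to 1 for monocyte, erythroid, B cell, basophil and NK genes, 2 to 6 for T cell, 0 to 2 for eosinophil and 0 to 6 for dividing-cell genes. DESeq2 called 3 factors, 1 monocyte, 1 B cell, 6 T cell, 2 eosinophil, 2 NK and 10 dividing-cell genes. Depth limits Ctsg most, and 2 libraries a group limit every fold.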
